A study of Mus musculus with 13 samples.

Results

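Pax6 encodes a paired-box and homeodomain transcription factor of eye, forebrain and spinal cord progenitors. The account below covers the stretch of mouse chromosome 2 that holds Pax6 and its flanking regulatory DNA, chr2:105300000-105750000 in the build mm9, a window of 450 kb. Its members are the deposited ChIP-seq peaks of 4 transcription factors whose centre lies in that window. Membership is by position, but the window itself was chosen with earlier results of these data known. The members number 17 of the 23280 peaks in the 4 lists, with 4 of 5551 Nkx2.2 peaks, 4 of 4094 Nkx6.1 peaks, 8 of 11747 Olig2 peaks and 1 of 1888 Gli3 peaks.

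In the developing spinal cord, Pax6 is expressed in progenitors of intermediate and dorsal positions and is low or absent next to the floor plate, where Sonic hedgehog signalling is strongest. Pax6 and Nkx2.2, a homeodomain factor of the most ventral neuronal progenitors, restrict each other's expression, and this sharpens the border with the motor neuron progenitors beside them. Nkx6.1 is a homeodomain factor of a broader ventral territory, Olig2 is a basic helix-loop-helix factor needed for motor neurons and oligodendrocytes, and the 3 of them act largely as repressors in these progenitors. Gli3 is a zinc-finger factor of the hedgehog pathway that is cut to a repressor where the signal is missing. Pax6 itself is known for long-range control: its enhancers lie upstream, in its own introns and far downstream in introns of Elp4, the next gene. In the GRCm38 gene table the protein-coding order around it is Wt1, Them7, Rcn1, Pax6, Elp4, Immp1l and Dnajc24. No annotation of mm9 was used here, so no peak below is placed in an intron, an exon or a promoter.

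The series holds 13 libraries from progenitors differentiated from mouse embryonic stem cells, 7 of them ChIP and 6 input chromatin. Nkx2.2, Nkx6.1 and Olig2 were each precipitated from 2 cultures of ventral progenitors, made with 2 days in suspension and 3 days in 500 nM retinoic acid and 160 to 800 nM Smoothened agonist, which switches hedgehog signalling on. Rosa26-Gli1FLAG, a derivative of YFP3.1 that carries FLAG-tagged Gli1 at Rosa26, gave both Nkx2.2 replicates and, for Nkx6.1 and Olig2, replicate 2. YFP3.1 itself gave replicate 1 of Nkx6.1 and of Olig2. These lines are on a mixed background of 129 Sv, Swiss Webster and C57BL6/J. Gli3 was precipitated with an anti-FLAG antibody from 1 culture of dorsal progenitors, which received the same retinoic acid and no agonist. Its line is V6.5 on C57BL/6 X 129/sv with a 3xFLAG-Avi tag inserted at the Gli3 initiation codon. Factor, cell line, antibody and culture therefore cannot be told apart between Gli3 and the ventral factors. No expression values were used here, so the labelled progenitor types were not checked against their markers.

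Each peak list is 1 list per factor without scores. For the 3 ventral factors the authors also deposited coverage around every peak, at offsets up to 2000 bp on each side in steps of 25 bp. Each table repeats these offsets in 3 blocks, which carry no library name and are called blocks 1, 2 and 3. The name of each table lists 3 codes, and the Nkx6.1 and Olig2 tables share only the third code. These codes were not matched to libraries or blocks here. Where Nkx6.1 and Olig2 peaks lay at distances that let their steps be aligned, block 3 of both tables was equal at 9816 of 9816 steps over 71 pairs of peaks. Blocks 1 and 2 were equal at 10.9% and 7.56% of those steps, and block 3 of the Nkx2.2 table equalled that of the Olig2 table at 5.46% of 8639 steps. The labels tie a single library to both factors, the input for replicate 2 of Nkx6.1 and Olig2. At the 16 members with coverage, block 3 was low and narrow in range, between 0.486 and 1.43 units on average within 250 bp of the peak centre. Block 1 was above block 3 at all 16 of these members, by 9.67 to 127 times, and block 2 at 15 of them, by 2.61 to 54.7 times. The members are listed peaks of the same factor, so high ChIP coverage at their centres follows from that choice. Sequencing depth and the scaling behind a unit are unknown, so the folds between blocks carry that unknown too. Coverage is therefore ranked here within its own table and block, and blocks are given side by side without a test. A rank of coverage averaged over the blocks was computed as an alternative. A low value can reflect fewer cells with the factor bound or less binding per cell, which bulk chromatin cannot tell apart.

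The 17 peaks fell into 11 separate regions that span 274998 bp. The first peak began 56490 bp inside the window and the last ended 118512 bp before its end. All 4 factors met at 1 region, each of the 3 possible pairs of ventral factors met at 1 region, and the other 7 regions had a single factor, 5 of them Olig2, 1 Nkx6.1 and 1 Nkx2.2. No region held exactly 3 lists. Regions of 2 or more factors were thus 4 of 11 in the window, against 16.2% of all 19087 regions of the series, and the region of 4 factors was 1 of 11, against 0.367%. Positions below are given as the distance of a peak's centre from the centre of the Gli3 peak, positive towards higher coordinates.

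**Figure D1:**
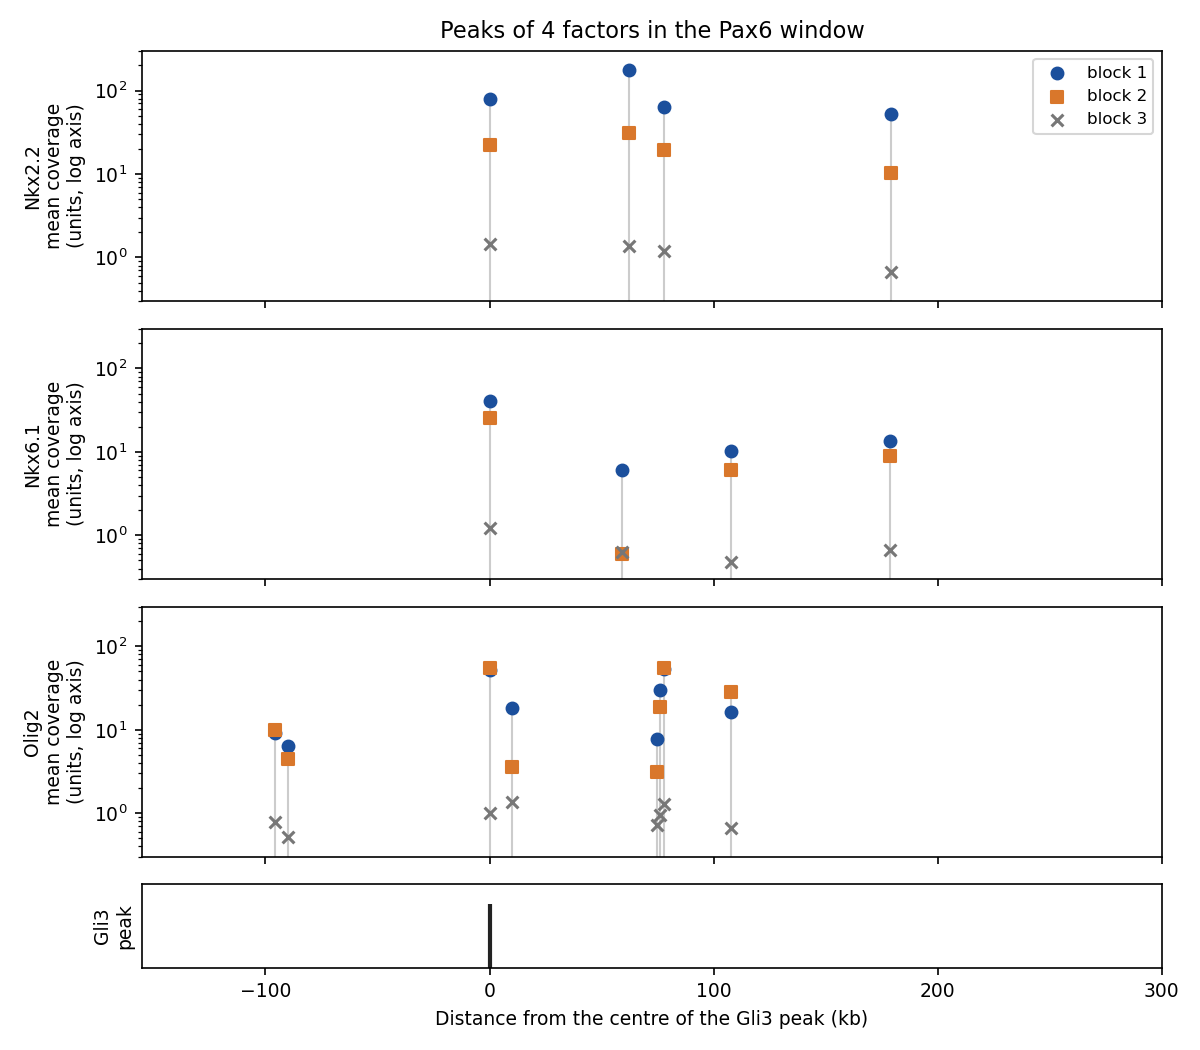
Peaks of the Pax6 window by position, with the distance from the centre of the Gli3 peak in kb on the horizontal axis and, for each ventral factor, mean coverage within 250 bp of the peak centre on a log axis in units of its own table. Circles are block 1, squares block 2 and crosses block 3, and the bottom strip marks the Gli3 peak, for which coverage was not used here; blocks 1 and 2 stand well above block 3 at every peak except block 2 of the Nkx6.1 peak at 59.0 kb.

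The only Gli3 peak of the window, chr2:105452215-105452514, lay in the region where all 4 factors met. Over the whole Gli3 list, 36.3% of peaks shared at least 1 bp with a ventral peak, 22.5% with Nkx2.2, 20.1% with Olig2 and 7.36% with Nkx6.1. Seen from the ventral lists, the peak that met Gli3 was 1 of 4 for Nkx2.2 against 7.91% of the list, 1 of 4 for Nkx6.1 against 3.47% and 1 of 8 for Olig2 against 3.26%. Together the 4 peaks covered 550 bp, chr2:105452215-105452764. The Nkx6.1 peak, chr2:105452257-105452556, was centred 42 bp from the Gli3 centre, and the Olig2 peak, chr2:105452389-105452688, 174 bp from it. The Nkx2.2 peak, chr2:105452465-105452764, was the farthest, at 250 bp, and overlapped the Gli3 peak by 50 bp. Nkx2.2 and Olig2, whose centres were 76 bp apart, shared 224 bp. The centres of the listed peaks thus stood in the order Gli3, Nkx6.1, Olig2, Nkx2.2 along the chromosome. The highest step of block 2 placed Olig2 before Nkx6.1, at -1 bp and 67 bp, so the order depends on the measure. The spread of the 4 centres, 250 bp, compares with a median of 158.5 bp over all 70 regions of 4 factors in the series, and 18 of the 70 were wider.

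Coverage at this region was high in all 3 ventral tables. Nkx2.2 averaged 80.2, 22.5 and 1.43 units in blocks 1, 2 and 3. Ranked among all Nkx2.2 peaks, these values were at percentiles 98.1, 97.3 and 59.1, where the percentile is the share of the table with a lower value. Nkx6.1 averaged 40.8, 25.6 and 1.21 units, at percentiles 97.4, 97.7 and 86.9. Olig2 averaged 51.7, 55.2 and 1.01 units, at percentiles 94.9, 97.6 and 74.2. This Nkx6.1 peak was the highest of the 4 in the window, and the next averaged 13.4 units in block 1 and 8.95 in block 2. Among the 70 regions of 4 factors, this region ranked 4th and 10th by Nkx2.2 in blocks 1 and 2, 10th and 13th by Nkx6.1, and 17th and 19th by Olig2.

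The profiles differed in shape between factors. Nkx6.1 had a single summit, 42 bp from the Gli3 centre in block 1 and 67 bp in block 2, with 84.0 and 49.8 units. Nkx2.2 had 2 summits in block 1, the higher at 225 bp with 177.2 units and the lower over the Gli3 centre, at 0 bp, with 87.7 units, and coverage between them dropped to 69.7 units. Olig2 also had 2 summits in block 1, at 174 bp with 84.8 units and at -51 bp with 65.1 units, with 55.9 units at the lowest point between them. Both pairs of summits were thus 225 bp apart, and in both the higher was the farther from the Gli3 centre. In block 2 the split was not seen under the same rule, a dip to 90% of the lower summit: Nkx2.2 had 1 summit at 175 bp with 38.0 units and Olig2 had 1 at -1 bp with 75.3 units. Profiles with 2 or more summits in block 1 were 1 of 4 Nkx2.2 peaks, 0 of 4 Nkx6.1 peaks and 1 of 8 Olig2 peaks in the window, against 44.3%, 13.8% and 13.6% of the lists. In block 2 they were 0 of 4, 1 of 4 and 1 of 8, against 52.8%, 36% and 21%, the 2 being the low peaks of Nkx6.1 at 59.0 kb and of Olig2 at 74.7 kb, and in both blocks 0 of 4, 0 of 4 and 0 of 8, against 28.9%, 8.18% and 6.74%. The rule is relative to the highest step of each profile, so it also counts small rises at low peaks. In block 2 the Nkx6.1 peak at 59.0 kb had a second summit of 0.465 units beside 1.40 units. The shares of the lists therefore do not say how common a split of high coverage is. With a dip to 80% in place of 90%, a rule chosen after seeing the data, 1 of the 2 split profiles of block 1 was left.

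**Figure D2:**
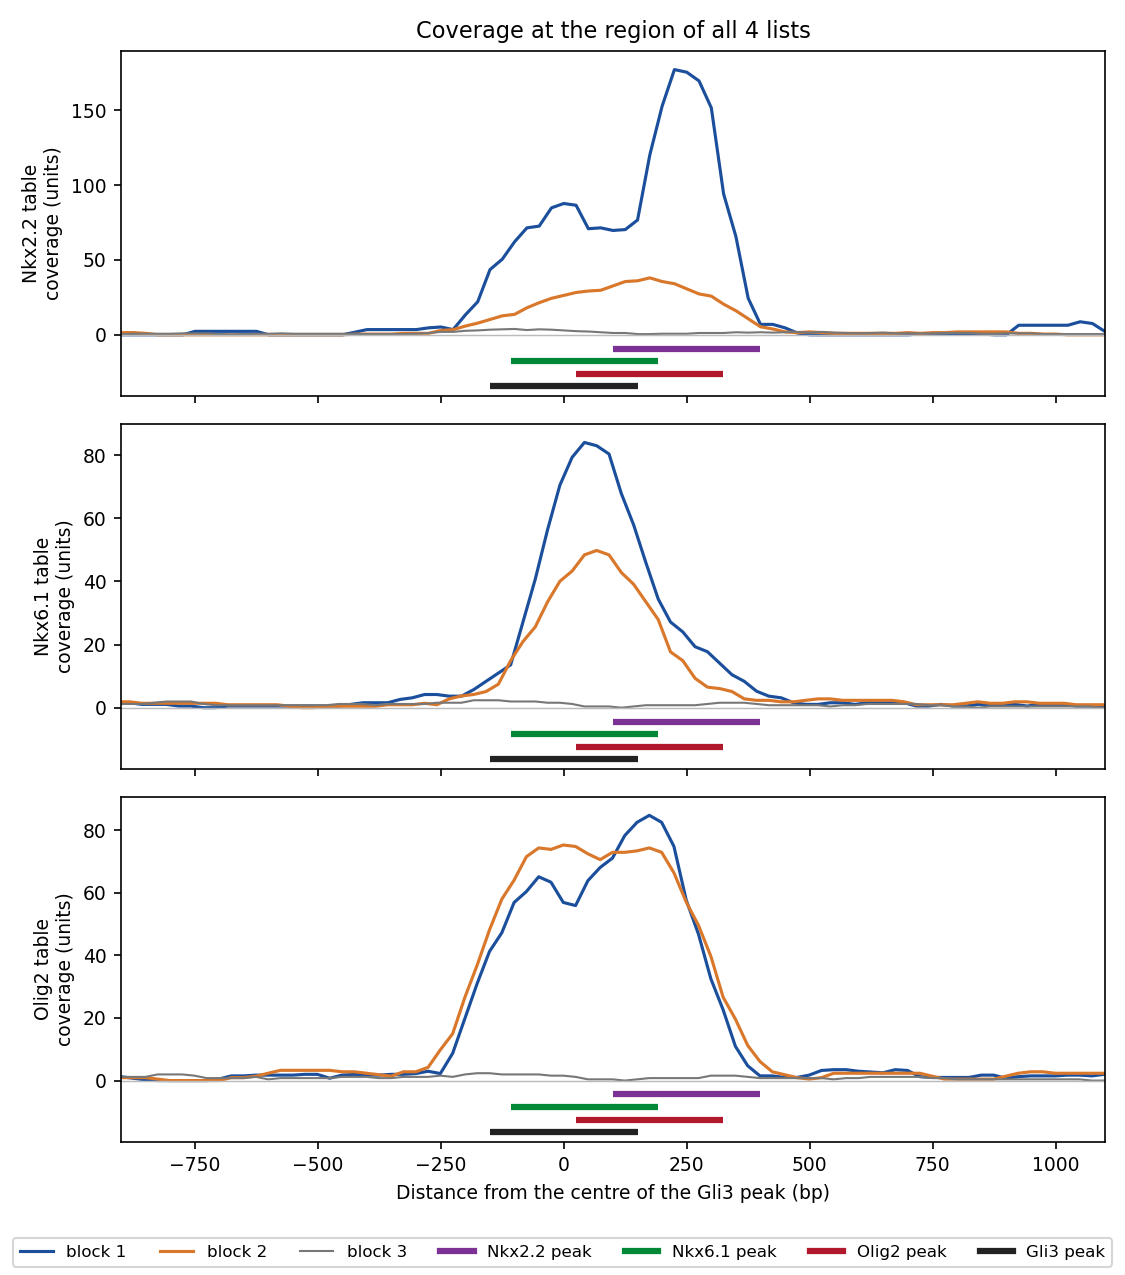
Coverage profiles at the region of all 4 factors, by distance in bp from the centre of the Gli3 peak, in the Nkx2.2, Nkx6.1 and Olig2 tables from top to bottom, each on its own scale of units. Lines are blocks 1, 2 and 3, and bars under them are the listed peaks of each factor; Nkx6.1 has a single summit next to the Gli3 centre, and block 1 of Nkx2.2 and Olig2 has 2 summits 225 bp apart.

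The highest rank of the window in blocks 1 and 2 belonged to an Nkx2.2 peak that overlapped no other list. It lay at chr2:105514651-105514950, 62.4 kb from the Gli3 peak. Nkx2.2 averaged 175.0, 31.0 and 1.37 units there in blocks 1, 2 and 3, and its highest step reached 507.1 units in block 1 and 67.3 in block 2. In its table this peak ranked 19th of 5551 in block 1 and 62nd in block 2, and its block 3 value was at percentile 57.1. Among the 3575 Nkx2.2 peaks that overlapped no other list it was 4th and 15th. It also stood at line 13 of the Nkx2.2 list. Lines of that list followed block 1 coverage closely, with Spearman's rho of -0.827 over all its peaks, given as a description, since list and table were made from libraries of the same factor.

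The nearest listed peak to it, 3432 bp away on the side of the Gli3 peak, was of Nkx6.1 alone, chr2:105511219-105511518, and had the lowest percentile of the window in blocks 1 and 2. Its mean was 6.14 units in block 1, at percentile 8.35 of the Nkx6.1 table. In block 2 it was 0.598 units, at percentile 0.440, against 0.635 units in block 3. It was the sole member with block 2 below block 3, 1 of 4 Nkx6.1 peaks in the window against 1.03% of the list. For Nkx2.2 these were 0 of 4 against 7.66%, and for Olig2 0 of 8 against 0.392%. Such values are near the floor: the smallest non-zero value of the Nkx6.1 table was 0.465 units in block 2 and 0.392 in block 3. Block 2 reached only 1.40 units at this peak, so its place below block 3 is not a clear difference. The ratio of block 1 to block 2 there, with 1 unit added to each, was 4.47, with block 2 near that floor. This was above 96.8% of Nkx6.1 peaks, whose median ratio was 1.94. The strongest Nkx2.2 peak and the weakest Nkx6.1 peak of the window were therefore neighbours that did not overlap.

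Nkx2.2 and Olig2 met without Nkx6.1 near 78 kb, in a run of 3 Olig2 peaks within 3214 bp. The first, at 74.7 kb, was of Olig2 alone, and so was the middle one, 1170 bp further on. The third, chr2:105530166-105530465, lay another 2044 bp on and overlapped an Nkx2.2 peak, chr2:105530051-105530350, with centres 115 bp apart. Olig2 coverage climbed along the run. Block 1 averaged 7.68 units at the first, 29.6 at the middle and 52.8 at the third peak, and block 2 averaged 3.12, 18.8 and 54.8 units. These values correspond to percentiles 22.1, 86.8 and 95.0 of the Olig2 table in block 1 and 12.1, 81.6 and 97.5 in block 2. Block 3 rose along the run as well, with 0.728, 0.952 and 1.31 units at percentiles 51.7, 69.9 and 87.5. The third was the Olig2 peak with the highest block 1 coverage of the window, and in block 2 it was second to that of the region of 4 factors.

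Nkx2.2 at the third peak of the run averaged 63.7, 19.5 and 1.19 units in blocks 1, 2 and 3, at percentiles 96.8, 96.3 and 49.2. Its table also reaches the middle Olig2 peak, 1929 bp away. There the Nkx2.2 table had 0, 0.975 and 1.22 units in blocks 1, 2 and 3. At its centre, the middle Olig2 peak thus had no Nkx2.2 coverage above block 3, while its Olig2 summit was 63.6 units in block 1 and 36.0 in block 2. The flanks of the middle and the last Olig2 peak of the run hold each other's coverage, with 16.7 and 13.5 units on average in block 1, against at most 0.833 units at the other 6 Olig2 peaks, so a rank by coverage over flank understates both.

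**Figure D3:**
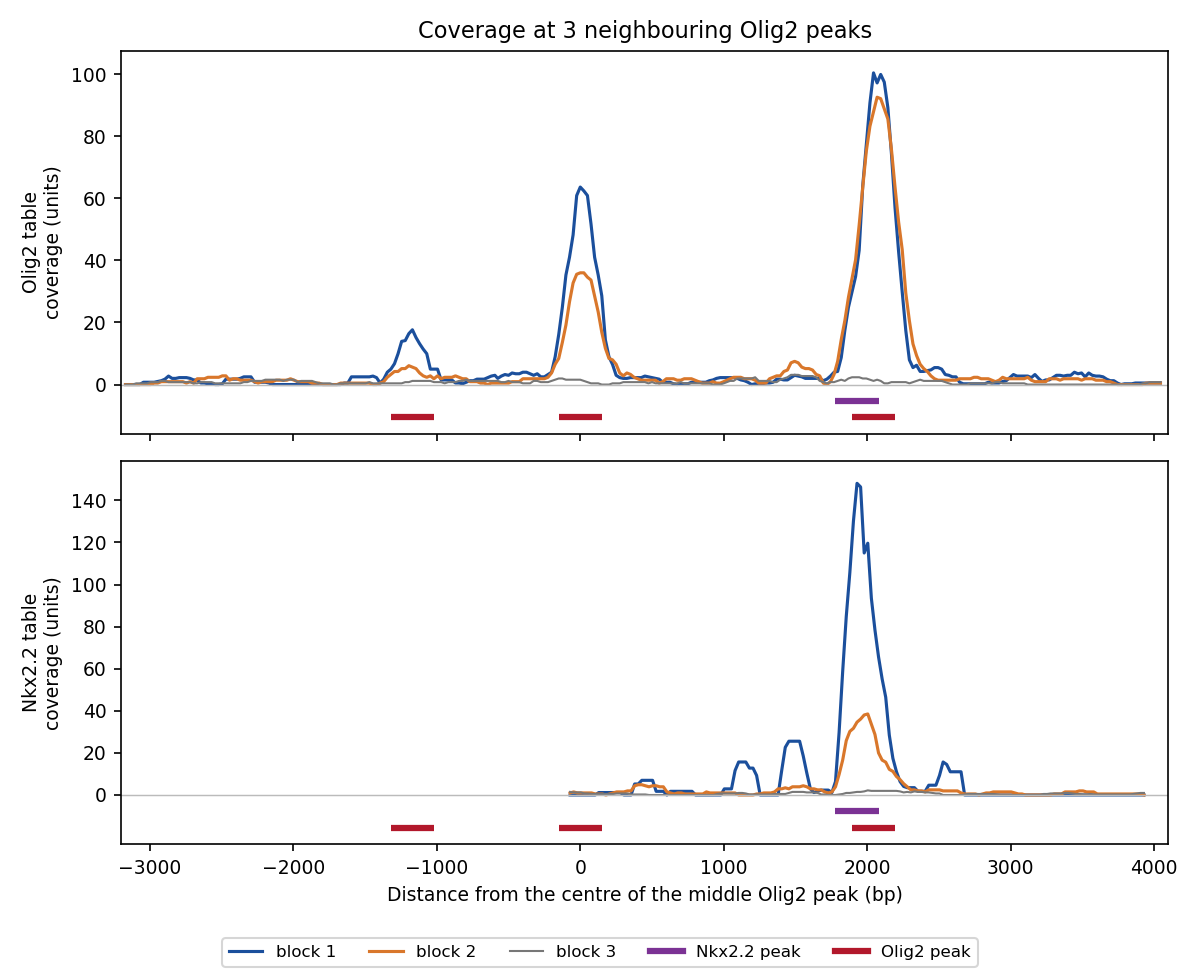
Coverage along the run of 3 Olig2 peaks, by distance in bp from the centre of the middle one, in the Olig2 table above and the Nkx2.2 table below, which starts beside the middle peak. Lines are blocks 1, 2 and 3 in units and bars are listed peaks; Olig2 coverage is highest at the third peak, the only one of the 3 with an Nkx2.2 peak.

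Nkx6.1 and Olig2 met without Nkx2.2 at 107.7 kb. The Olig2 peak, chr2:105559909-105560208, and the Nkx6.1 peak, chr2:105560006-105560305, had centres 97 bp apart. Nkx6.1 was close to the middle of its list there, with 10.3, 6.07 and 0.486 units in blocks 1, 2 and 3, at percentiles 48.9, 57.8 and 31.4. Olig2 was higher in block 2 than in block 1, with 16.4, 28.7 and 0.672 units in blocks 1, 2 and 3, at percentiles 69.2, 91.3 and 46.4. Its ratio of block 1 to block 2, 0.585, was above only 2.59% of the Olig2 table, whose median was 1.42. Of the 9 peaks with coverage in regions of 2 or more factors, both peaks of this region were among the 3 with the lowest block 1 percentile.

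Nkx2.2 and Nkx6.1 met without Olig2 at 179.0 kb, the last region of the window. The Nkx6.1 peak, chr2:105631133-105631432, and the Nkx2.2 peak, chr2:105631189-105631488, were the closest pair outside the region of 4 factors, with 56 bp between their centres and 244 bp shared. Nkx2.2 averaged 52.8, 10.2 and 0.664 units in blocks 1, 2 and 3, at percentiles 94.6, 84.6 and 20.5. It was the lowest of the 4 Nkx2.2 peaks in the window and still above most of its list in blocks 1 and 2. Nkx6.1 averaged 13.4, 8.95 and 0.672 units, at percentiles 69.1, 75.4 and 50.8. Its summit lay at 28.7 units in block 1 and 15.8 in block 2.

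**Figure D4:**
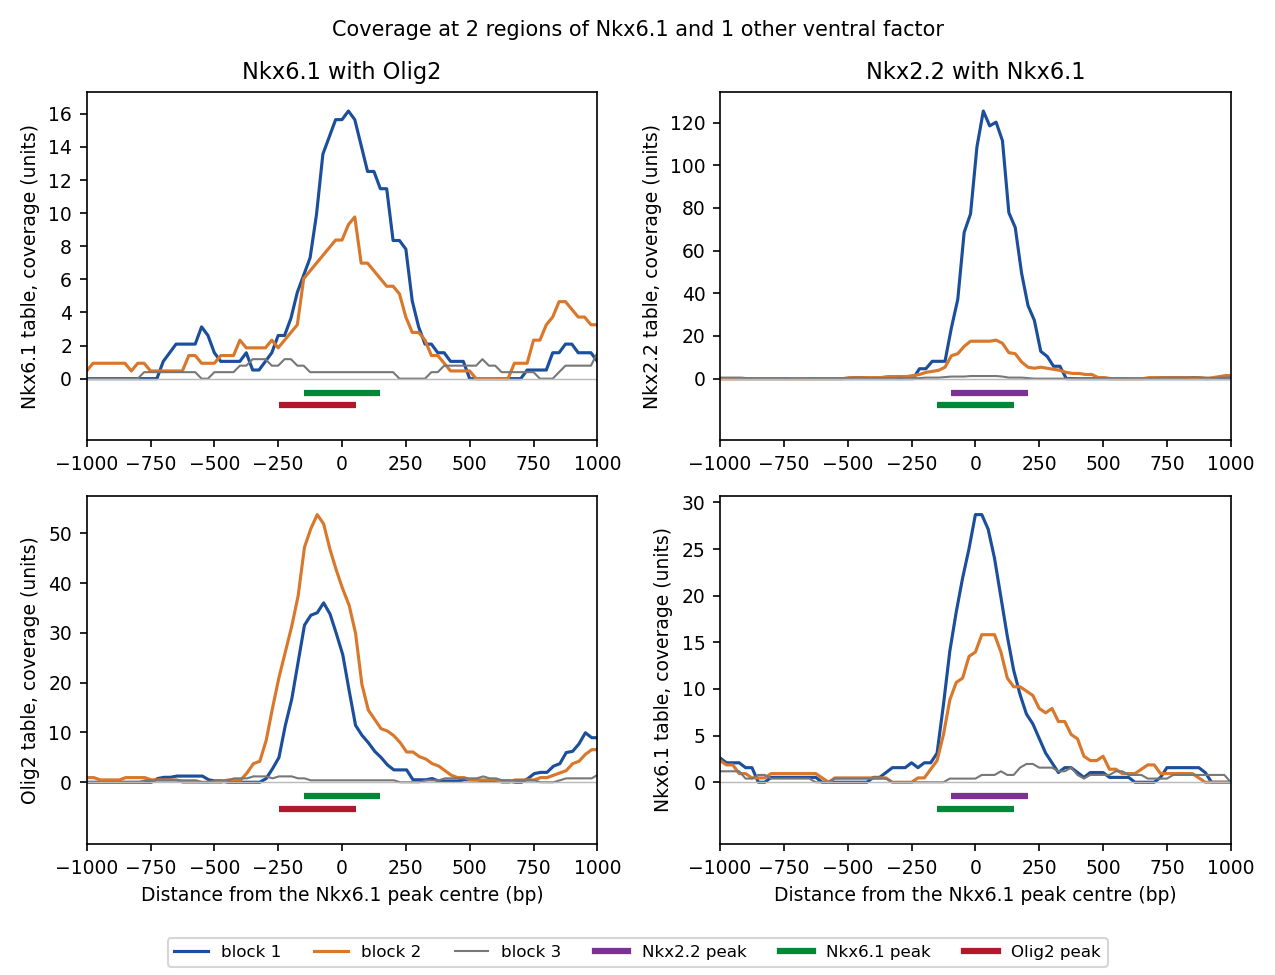
Coverage at the regions where Nkx6.1 met Olig2 (left) and Nkx2.2 met Nkx6.1 (right), by distance in bp from the Nkx6.1 peak centre, each panel on its own scale of units. Lines are blocks 1, 2 and 3 and bars are listed peaks; the summit of block 2 exceeds that of block 1 for Olig2 at the left region, and the summit of block 1 exceeds that of block 2 in the other panels.

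The other 3 Olig2 peaks were of Olig2 alone. The pair nearest the start of the window, at -95.7 and -90.1 kb, were 5580 bp apart and weak. They averaged 9.23 and 6.37 units in block 1, at percentiles 35.7 and 9.36, and 9.87 and 4.45 units in block 2, at percentiles 57.4 and 22.5. Both stood late in the Olig2 list, at lines 9577 and 9983. The peak at chr2:105462246-105462545, 10.0 kb past the Gli3 peak, was uneven between blocks, with 18.0, 3.56 and 1.36 units in blocks 1, 2 and 3. Those values were at percentiles 73.2, 15.5 and 89.3, and its ratio of block 1 to block 2, 4.17, was above 97.8% of the Olig2 table. Against it, the Olig2 peak that met Nkx6.1 had 0.909 times the coverage in block 1 and 8.05 times in block 2, so the order of these 2 Olig2 peaks depends on the block.

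All 4 Nkx2.2 peaks of the window were in the upper part of their list. Their median was 71.9 units in block 1 against a list median of 18.4, and 21.0 units in block 2 against 4.43. In block 3 the medians were 1.28 units in the window and 1.20 in the list. The Nkx6.1 peaks were closer to their list, with medians of 11.9 units against 10.4 in block 1 and 7.51 against 5.19 in block 2. The Olig2 peaks fell between, with medians of 17.2 units against 11.3 in block 1 and 14.3 against 8.44 in block 2. Peaks at percentile 90 or above in both block 1 and block 2 numbered 3 of 4 for Nkx2.2, 1 of 4 for Nkx6.1 and 2 of 8 for Olig2, against 6.03%, 5.69% and 6.78% of the lists. By block 3, 0 of the 16 peaks were at percentile 90 or above, against 10%, 9.99% and 9.96% of the lists.

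Across the 3 tables, 11 of the 16 peaks exceeded the median of their list in block 1, 12 in block 2 and 10 in block 3, with median percentiles of 80.01, 83.1 and 54.1. By construction, about 50% of a whole list lies above its median. The 9 peaks in shared regions had median percentiles of 94.9 in block 1 and 96.3 in block 2, with lowest values of 48.9 and 57.8. The 7 peaks of a single factor had 35.7 and 22.5, but ran up to 99.7 and 98.9, both at the Nkx2.2 peak at 62.4 kb. In block 3 the medians were 50.8 for the shared and 56.6 for the single peaks. The same split over the whole lists was not computed, so it is not shown to be particular to this window. Factor was mixed with it: the shared peaks were 3 of each ventral factor, while 5 of the 7 single peaks were of Olig2.

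**Figure D5:**
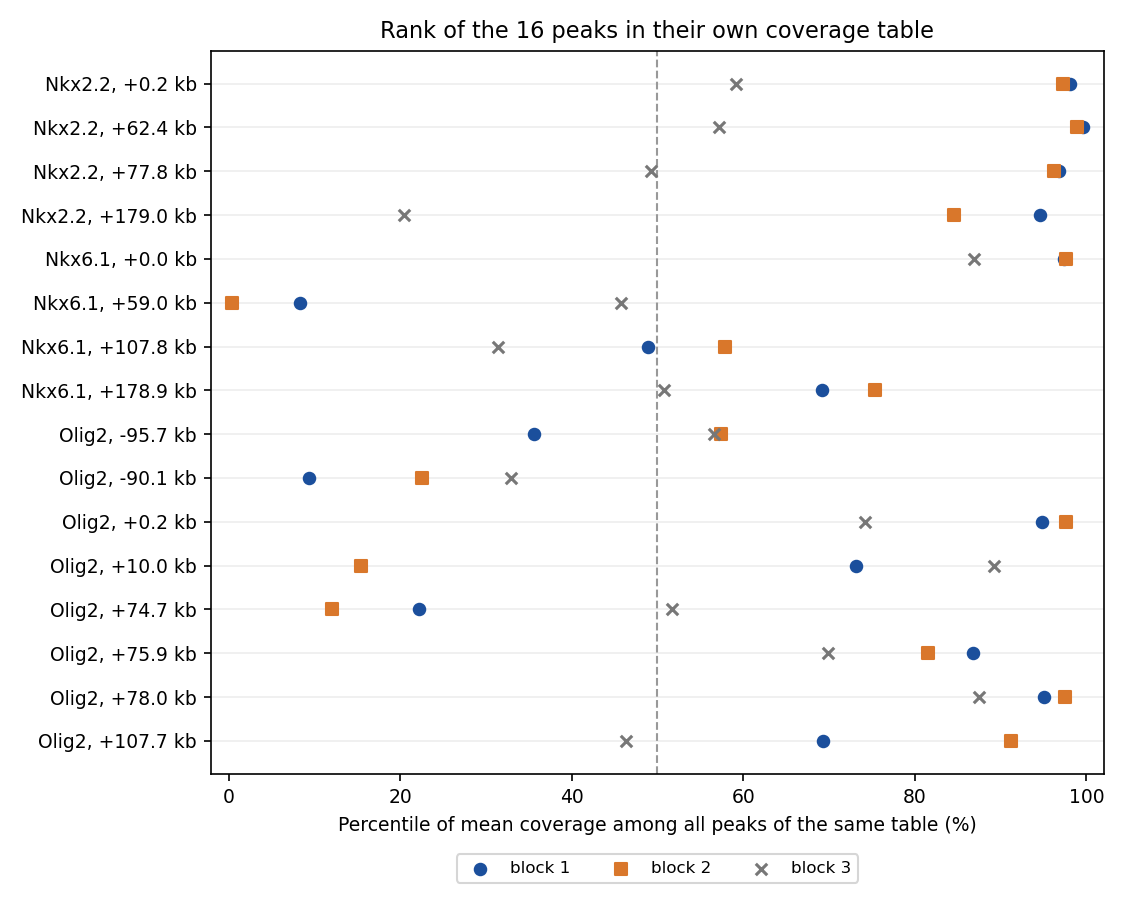
Percentile of each of the 16 members with coverage among all peaks of its own table, by mean coverage within 250 bp of the centre, with peaks named by factor and distance from the Gli3 centre. Circles are block 1, squares block 2 and crosses block 3, and the dashed line marks the list median; all 4 Nkx2.2 peaks are at percentile 84.6 or above in blocks 1 and 2, while the Nkx6.1 and Olig2 peaks spread over most of the range.

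Peaks that met another ventral factor numbered 3 in each ventral list. At least 1 bp was shared by 3 of 4 Nkx2.2 peaks in the window against 30.3% of the list, by 3 of 4 Nkx6.1 peaks against 46.7%, and by 3 of 8 Olig2 peaks against 20.1%. Each of the 3 lists met each of the others at 2 regions of the window, counting the region of 4 factors. For Nkx2.2, that was 2 of 4 peaks with Nkx6.1 against 16.1% of the list and 2 of 4 with Olig2 against 24.3%. Nkx6.1 met Nkx2.2 at 2 of 4 peaks against 21.5% and Olig2 at 2 of 4 against 38.6%. Olig2 met Nkx2.2 at 2 of 8 peaks against 11.2% and Nkx6.1 at 2 of 8 against 13.5%. With 4 or 8 peaks a list at a single locus, these counts describe the window and were not tested.

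The whole window held more peaks than most stretches of its length. When each chromosome was cut into windows of 450 kb from its first base, the Pax6 window, itself one of the 5868, held 17 peaks against a median of 3 and a highest count of 54. Fewer peaks were found in 98.2% of the windows, and more in 88. Since the window was chosen with earlier results known, this rank is a description. By list, the share of windows with fewer peaks was 94.1% for Nkx2.2, 97.0% for Nkx6.1, 96.8% for Olig2 and 79.3% for Gli3. A peak of every list was present in 531 windows, or 9.05%, and a region of 4 factors in 68.

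The peaks thinned out on both sides. The window of equal length before it held 6 peaks, 3 of Olig2 and 3 of Nkx6.1. The next one after it held 7, of which Olig2 had 3, Nkx6.1 had 2, and Gli3 and Nkx2.2 had 1 each. Before the window the nearest peak was of Nkx6.1, chr2:105268291-105268590, 31.6 kb outside the edge, with 5.89, 3.59 and 1.20 units in blocks 1, 2 and 3. The nearest Olig2, Gli3 and Nkx2.2 peaks on that side were 163.9, 643.6 and 1092 kb outside. After the window the 3 ventral factors met again at chr2:105989872-105990328, 240.0 kb outside for Olig2, 240.1 kb for Nkx2.2 and 240.2 kb for Nkx6.1. Olig2 averaged 91.3 units there in block 1 and 75.3 in block 2, above each of its 8 peaks in the window. The nearest Gli3 peak after the window was 304.2 kb outside.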

How the data were processed

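Mouse progenitors were profiled by ChIP-seq. Bowtie2 2.2.4, HOMER and the build mm9 are named in the submitters' processing notes. No source used here states which of them made a file or if replicates were combined. Deposited by the authors were 4 peak lists without scores (every member is 300 bp wide) and 3 coverage tables, a signal in units whose scaling is not stated, so depth is unknown. Row i of a table was taken as line i of its list. Profiles of some members at 59 to 137 shared steps correlated at 0.958 to 0.9995 within a block. These pairs were Olig2 with Olig2, and Nkx6.1 with Olig2 in block 3. No Nkx2.2 row was checked in this way. Columns of other samples left out numbered 0.

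Coordinates are printed 1-based. Regions were unions of peaks sharing at least 1 bp. Mean coverage is over the steps within 250 bp of a centre, and percentiles are shares of a table's peaks with a lower value. The flank is the outermost 250 bp on each side. Summits were sought within 400 bp, at 30% or more of the highest step. Samples were grouped from their titles. No test was made: a factor has 1 list, and blocks name no library. Members and lists were chosen with earlier results of these data known. Full values are given for peaks of regions with 3 or 4 factors, Gli3 peaks and the 3 highest peaks per ventral list in blocks 1 and 2. The other 6 peaks were described after their values were seen. Peak sequences need an mm9 genome and are not analysed here. Alternatives moved the window by 50 kb, the overlap rule, the coverage measure and the tiling. Scripts used Python 3.11.15, numpy 2.4.6, pandas 2.3.3 and matplotlib 3.10.9, and were tested on simulated data.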

Additional observations from a re-analysis of the deposited data

How the results depend on the processing

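Of 32 alternatives, 17 gave the same value within the rule used and 15 moved it. The rule was a fold band for counts. For percentiles it was an interval set by the number of peaks in the shortest coverage table, or by the number of windows. That interval is not the spread of a median over the members, so the tally does not measure robustness. The window held 17 peaks by any base inside it or narrowed by 50 kb at each end, and 18 when widened by 50 kb. Regions of 2 or more factors stayed at 4 with centres within 100 or 1000 bp, and numbered 2 to 4 with each list left out in turn. With coverage within 100 bp of the centre, by the highest step and over the flank, the median percentile was 81.5, 81.6 and 68.3 in block 1 (80.01 as reported), and 46.0, 59.5 and 41.0 in block 3 (54.1 as reported). In block 2 it was 85.0 within 100 bp and 73.8 over the flank (83.1 as reported). The flank measure includes coverage of neighbouring Olig2 peaks, as given above. When coverage was first averaged over the 3 blocks, whose scaling is unknown, and then ranked, the median percentile was 84.4, and 80.6 to 84.5 with each block left out of that average in turn. Among windows with at least 1 peak, 97.6% had fewer peaks than the Pax6 window. Split profiles numbered 1 with a dip to 80% and 2 with 90%. The settings for Gli3 overlap, the peaks at percentile 90 or above and the dip were chosen after seeing the data. No paired analysis was possible because the coverage columns carry no replicate numbers and no test was made.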
